A study of Mus musculus with 6 samples.

Results

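In bulk RNA-Seq of CD11B+ kidney cells, 35 genes of endothelial cells and podocytes were followed among the 46603 genes counted. They were taken by symbol and comprise 25 general endothelial genes, 2 genes placed in a glomerular endothelial group (Ehd3 and Emcn) and 8 podocyte genes. A group name does not mean that its genes are confined to that cell type or vessel. CD11B, the integrin encoded by Itgam, is carried by myeloid and NK cells and not by endothelial cells or podocytes. The 35 are thus mainly genes of cells that the magnetic bead selection was not aimed at. Some, among them Pecam1, Eng, Cd34 and Ptpro, are also used by blood cells.

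Endothelial cells line the blood vessels, and in the glomerulus they form a fenestrated capillary wall that filters plasma together with the podocytes on its outer face. Podocytes are epithelial cells whose foot processes are joined by the slit diaphragm, a junction built around nephrin. Endothelial identity depends on cadherin junctions and on the VEGF and angiopoietin receptors, which answer ligands made by podocytes, tubules and perivascular cells.

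All mice were 10- to 12-week-old males carrying the Rosa26-LSL-RARaT403X allele, which encodes a dominant negative retinoic acid receptor behind a floxed stop. In the 3 PTEC DN RAR mice the genotype was PEPCK CRE+, so the receptor was switched on in proximal tubular epithelial cells (PTECs), and the 3 Cre- control mice had the allele with PEPCK CRE-. Both genotypes had IRI-AKI, acute kidney injury from clamping both renal pedicles for 28 minutes, and cells were taken on day 3. Each group is thus an injured one, uninjured kidneys were not analysed here, and the promoter that drives Cre is meant for PTECs and not for endothelium or podocytes. The labels give 1 library per mouse.

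Counts summed over genes ranged from 29318041 to 46517005 per library, so that 3 reads correspond to 0.0645 to 0.102 CPM at these raw totals (CPM are counts scaled to library size, and those of genes given here also carry TMM factors). Ptprc, the pan-leukocyte CD45 gene, measured 832 to 1064 CPM in controls, and 805 to 1010 in PTEC DN RAR mice (log2 fold change -0.11). Itgam itself was lower in PTEC DN RAR mice, at 980 to 1366 CPM against 1737 to 1995 (log2 fold change -0.64, Benjamini-Hochberg adjusted p = 0.00818, edgeR). Rara, the normal counterpart of the transgene, gave a log2 fold change of -0.33 (adjusted p = 0.0628, edgeR), and the counts have no entry for the transgene itself. The 35 genes together took 0.0427% to 0.0575% of CPM in controls, and 0.104% to 0.121% in PTEC DN RAR mice.

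Endothelial and podocyte transcripts were higher in the CD11B+ preparations of PTEC DN RAR mice. All 35 genes passed the filter on low counts, none of them through the PTEC DN RAR libraries alone, and 31 rose in the quasi-likelihood test of edgeR (Benjamini-Hochberg adjusted p under 0.05 over 15440 genes), where 23.6% of all genes tested rose. None of the 35 was lower, against 17.1% of all genes. In 32 of the 35 every PTEC DN RAR library lay above every control library, a pattern found in 29.2% of all genes. The median log2 fold change was 1.39, or 2.62-fold, against 0.04 over all genes tested, and 27 of the 35 genes were called and at least 2-fold higher, against 14.4% of all genes tested. In such bulk RNA, more cells of a type and more RNA per cell cannot be told apart.

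**Figure D1:**
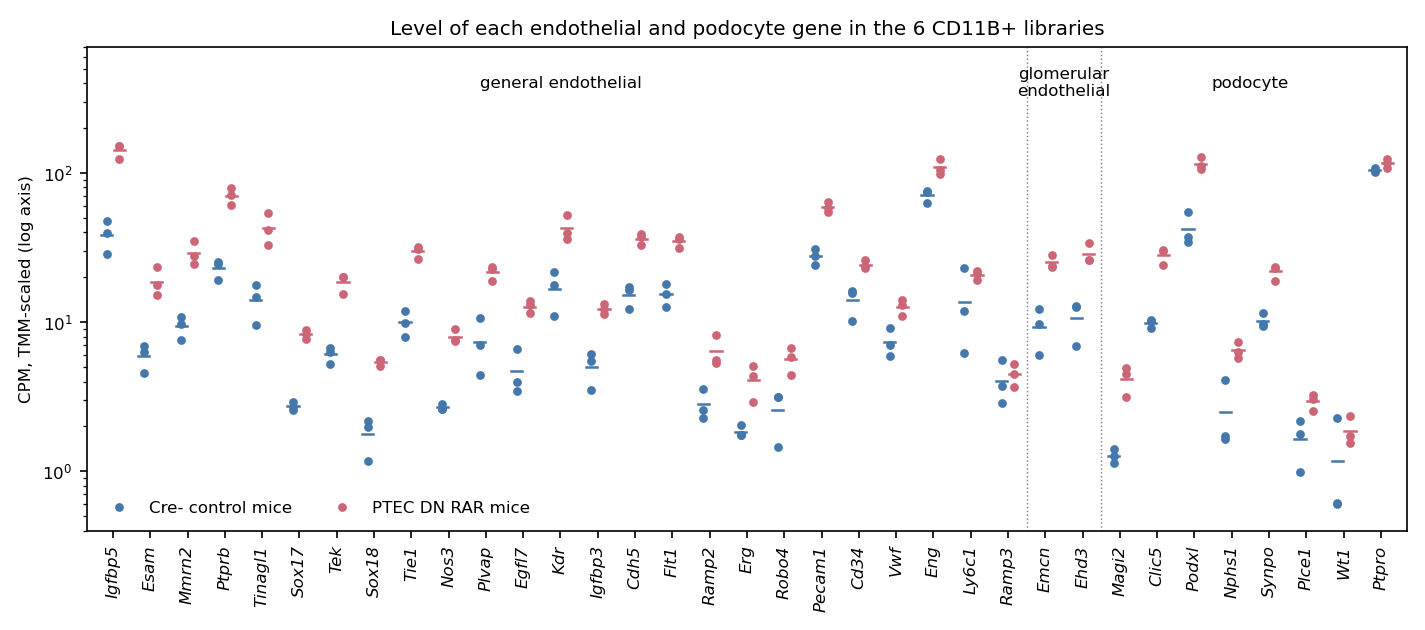
Level of each of the 35 genes in the 6 libraries, as TMM-scaled CPM on a log axis, with a point per mouse and a bar at the group mean. Controls are blue and PTEC DN RAR mice red, and the groups overlap only for Ly6c1, Ramp3 and Wt1.

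Genes rose in each of the general endothelial, glomerular endothelial and podocyte groups. Of the 25 general endothelial genes 23 rose, with a median log2 fold change of 1.34 over all 25 (range 0.14 to 1.89). Both glomerular endothelial genes rose, by 1.42 and 1.43 on the log2 scale. Of the 8 podocyte genes 6 rose, with a median log2 fold change of 1.25 and a range of 0.15 to 1.71. The differences between these medians were not tested.

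As promoters of genes that move together, the sequences just upstream of 4 endothelial receptors or surface genes and of a podocyte gene are printed here. RefSeq promoter windows on GRCm38.p6 were matched for 21 of the 35 genes, in 28 windows. The 250 bases before each start were searched on both strands for AGGAAG or CGGAAG, 2 words around the GGAA core that ETS factors such as Erg bind. At least 1 of these words was found in 16 of the 28 windows (57.1%), against 39.2% of 32851 windows of all genes, and by group in 13 of 22 endothelial and 3 of 6 podocyte windows. The GATA word AGATAA was found in 1 of the 22 endothelial and 3 of the 6 podocyte windows, against 9.99% of all. Over the 28 windows, the FOX word TAAACA was found in 3.57% against 12.0% of all, the SOX words AACAAT or AACAAA in 25% against 24.9%, and the WT1/EGR words GCGTGGG or GCGGGGG in 10.7% against 13.0%. A match is a description of letters and not a binding site. The stretches run from 5′ to 3′ on the strand of the gene, and capitals mark the ETS words.
Flt1, chr5:147726012-147726161 (minus strand): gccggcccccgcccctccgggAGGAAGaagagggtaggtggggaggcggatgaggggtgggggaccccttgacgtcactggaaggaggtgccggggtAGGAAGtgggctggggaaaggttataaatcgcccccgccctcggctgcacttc
Emcn, chr3:137340928-137341066 (plus strand): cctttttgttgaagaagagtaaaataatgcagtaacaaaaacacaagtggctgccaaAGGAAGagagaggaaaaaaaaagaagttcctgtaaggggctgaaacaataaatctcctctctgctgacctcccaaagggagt
Kdr, chr5:75978459-75978605 (minus strand): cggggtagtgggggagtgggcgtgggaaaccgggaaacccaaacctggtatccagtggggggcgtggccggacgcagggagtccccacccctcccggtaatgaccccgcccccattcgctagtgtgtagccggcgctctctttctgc
Tek, chr4:94739139-94739288 (plus strand): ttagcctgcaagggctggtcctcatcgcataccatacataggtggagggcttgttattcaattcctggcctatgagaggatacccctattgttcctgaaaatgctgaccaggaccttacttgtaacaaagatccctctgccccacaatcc
Clic5, chr17:44188422-44188571 (plus strand): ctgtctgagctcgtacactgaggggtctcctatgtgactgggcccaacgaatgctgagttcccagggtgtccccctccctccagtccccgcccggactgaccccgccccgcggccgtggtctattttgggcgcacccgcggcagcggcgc
The printed Flt1 stretch holds 2 ETS words and that of Emcn holds 1, whereas those of Kdr, Tek and Clic5 hold none, although all 5 genes rose.

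Genes of the endothelial junction and surface rose in 5 of 6 cases. Pecam1 (ENSMUSG00000020717, chromosome 11 of GRCm38 from 106654217 to 106750628), which encodes the adhesion molecule CD31, measured 27.9, 31.0 and 24.0 CPM in controls, against 58.6, 64.3 and 54.6 CPM in PTEC DN RAR mice. The lowest PTEC DN RAR library was 1.76-fold above the highest control. Its log2 fold change was 1.10 (SE 0.11, adjusted p = 0.000355 from edgeR). Cdh5 (ENSMUSG00000031871, chromosome 8 from 104101625 to 104144511), the gene for VE-cadherin, measured 16.5, 17.2 and 12.2 CPM in controls, against 33.0, 38.7 and 37.0 CPM in PTEC DN RAR mice. It is the defining junctional cadherin of the endothelium, and its groups did not overlap (log2 fold change 1.24, SE 0.14, adjusted p = 0.00051 from edgeR). Esam, a tight junction molecule, and Plvap, which forms the diaphragms of fenestrae and caveolae, rose by 1.65 and 1.54 on the log2 scale. Cd34, a sialomucin shared with blood progenitors, rose less, by 0.79 on the log2 scale.

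Ly6c1 was the junction and surface gene that did not pass. It measured 11.8, 23.0 and 6.18 CPM in controls, against 20.95, 19.3 and 22.1 CPM in PTEC DN RAR mice. Control replicate 2 was the highest of all 6 libraries, so the groups overlapped (log2 fold change 0.61, SE 0.37, adjusted p = 0.222 from edgeR). Without that library the log2 fold change was 1.16 (adjusted p = 0.0119 from edgeR), and without control replicate 3, the lowest, it was 0.21 (adjusted p = 0.56 from edgeR). Ly6c1 has a near-identical neighbour, the monocyte gene Ly6c2, which measured 34.2 to 65.2 CPM in controls, and 13.6 to 41.5 CPM in PTEC DN RAR mice, and since reads aligned to more than 1 place were left out, the split between the 2 genes is uncertain.

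Receptors and signalling genes of the endothelium rose in 8 of 9 cases. Kdr (ENSMUSG00000062960, chromosome 5 from 75932827 to 75978458), the main signalling receptor for VEGF-A, measured 17.9, 21.5 and 10.9 CPM in controls, against 36.0, 52.1 and 39.5 CPM in PTEC DN RAR mice. Every PTEC DN RAR library was above every control, and replicate 3 was the lowest control (log2 fold change 1.34, SE 0.24, adjusted p = 0.00315 from edgeR). Flt1 (ENSMUSG00000029648, chromosome 5 from 147561604 to 147726011), a VEGF receptor that also acts as a decoy, measured 15.5, 18.0 and 12.6 CPM in controls, against 31.4, 37.3 and 36.2 CPM in PTEC DN RAR mice. Its groups were also apart (log2 fold change 1.18, SE 0.14, adjusted p = 0.000605 from edgeR).

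All 3 genes of the angiopoietin receptor complex rose. Tek (ENSMUSG00000006386, chromosome 4 from 94739289 to 94874976), which encodes the angiopoietin receptor TIE2, measured 6.76, 6.34 and 5.26 CPM in controls, against 15.5, 20.1 and 20.1 CPM in PTEC DN RAR mice. The nearest libraries of the groups lay 2.29-fold apart (log2 fold change 1.60, SE 0.16, adjusted p = 0.000309 from edgeR). Its partner Tie1 rose by 1.58 on the log2 scale, from 8.01 to 12.0 CPM in controls to 26.6 to 32.1 CPM. Ptprb, the gene for VE-PTP, a phosphatase that acts on TIE2 and VE-cadherin, measured 24.7, 25.2 and 19.2 CPM in controls, against 61.3, 78.8 and 70.9 CPM in PTEC DN RAR mice. With a gap of 2.43-fold between the nearest libraries, Ptprb shared the lowest adjusted p of the 35 genes with Clic5 (log2 fold change 1.61, SE 0.14, adjusted p = 0.000201 from edgeR).

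Eng, the gene for the TGF-β coreceptor endoglin, which macrophages can also carry, rose less than the other receptors that passed. It measured 75.4, 74.5 and 62.5 CPM in controls, against 105, 125 and 99.0 CPM in PTEC DN RAR mice, without overlap (log2 fold change 0.63, SE 0.12, adjusted p = 0.0037 from edgeR). Robo4, a guidance receptor that stabilises vessels, rose by 1.12 on the log2 scale, and its call was lost without PTEC DN RAR replicate 2 (log2 fold change 0.99, adjusted p = 0.0551 from edgeR).

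Of the 2 RAMP genes 1 rose. RAMP proteins are partners of the calcitonin receptor-like receptor Calcrl, and RAMP2 makes it a receptor for adrenomedullin. Ramp2 measured 3.59, 2.28 and 2.57 CPM in controls, against 5.35, 5.54 and 8.24 CPM in PTEC DN RAR mice, so the groups were apart (log2 fold change 1.18, SE 0.25, adjusted p = 0.00634 from edgeR). Ramp3 measured 5.56, 2.88 and 3.74 CPM in controls, against 3.68, 5.28 and 4.49 CPM in PTEC DN RAR mice, and control replicate 1 was the highest of the 6 (log2 fold change 0.14, SE 0.26, adjusted p = 0.702 from edgeR). Its log2 fold change was 0.43 without that library and -0.10 without control replicate 2. Within each library the ratio of Ramp2 to Ramp3 CPM was 0.645, 0.791 and 0.686 in the controls, against 1.46, 1.05 and 1.84 in PTEC DN RAR mice. On average the log2 ratio differed by 1.00 (p = 0.1 by an exact two-sided permutation of the mice, which can go no lower with 3 against 3, and 0.1 after adjustment over 3 such ratios), and since the pair was chosen after its values were seen this is a description.

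All 3 endothelial transcription factors rose. Sox17, an arterial factor, measured 2.72, 2.92 and 2.57 CPM in controls, against 7.67, 8.34 and 8.92 CPM in PTEC DN RAR mice. Both groups were tight and lay 2.63-fold apart at their nearest libraries (log2 fold change 1.60, SE 0.15, adjusted p = 0.000287 from edgeR). Sox18, its relative in vessel and lymphatic development, also rose by 1.60 on the log2 scale, and Erg, an ETS factor that maintains endothelial identity, rose by 1.15, from 1.74 to 2.05 CPM in controls to 2.92 to 5.07 CPM.

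The 7 genes for the endothelial enzyme and for secreted or matrix proteins all rose. Igfbp5 (ENSMUSG00000026185, chromosome 1 from 72857932 to 72874884), which encodes a secreted binding protein of insulin-like growth factors, measured 39.5, 47.6 and 28.8 CPM in controls, against 125, 152 and 152 CPM in PTEC DN RAR mice. This was the largest fold change of the 35 genes, 3.70-fold (log2 fold change 1.89, SE 0.17, adjusted p = 0.000254 from edgeR). Which cells the Igfbp5 transcripts came from was not tested. Its family member Igfbp3 rose by 1.29 on the log2 scale. Nos3, the endothelial nitric oxide synthase gene, measured 2.82, 2.62 and 2.63 CPM in controls, against 7.50, 7.57 and 8.94 CPM in PTEC DN RAR mice. Its groups lay 2.66-fold apart, the widest gap of the 35 genes (log2 fold change 1.57, SE 0.16). Mmrn2, an endothelial matrix protein, Tinagl1, a matricellular protein, and Egfl7, which guides vessel assembly, rose by 1.64, 1.61 and 1.43 on the log2 scale. Vwf, which endothelium shares with platelets, rose least of this group, by 0.78 on the log2 scale, from 9.09, 7.05 and 5.96 CPM to 10.9, 14.1 and 13.0 CPM. Of 9 platelet and megakaryocyte genes 6 were tested and 2 fell, Pf4 and Ppbp, with log2 fold changes of -3.10 and -4.35. The other 4 did not pass, with log2 fold changes of 0.02 for Itga2b, -0.10 for Treml1, -0.43 for Tubb1 and 0.69 for Clec1b. The summed CPM of the 9 genes, 280 to 414 in controls and 38.1 to 48.6 in PTEC DN RAR mice, was mostly Pf4, which averaged 332 CPM in controls and 38.7 in PTEC DN RAR mice.

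**Figure D2:**
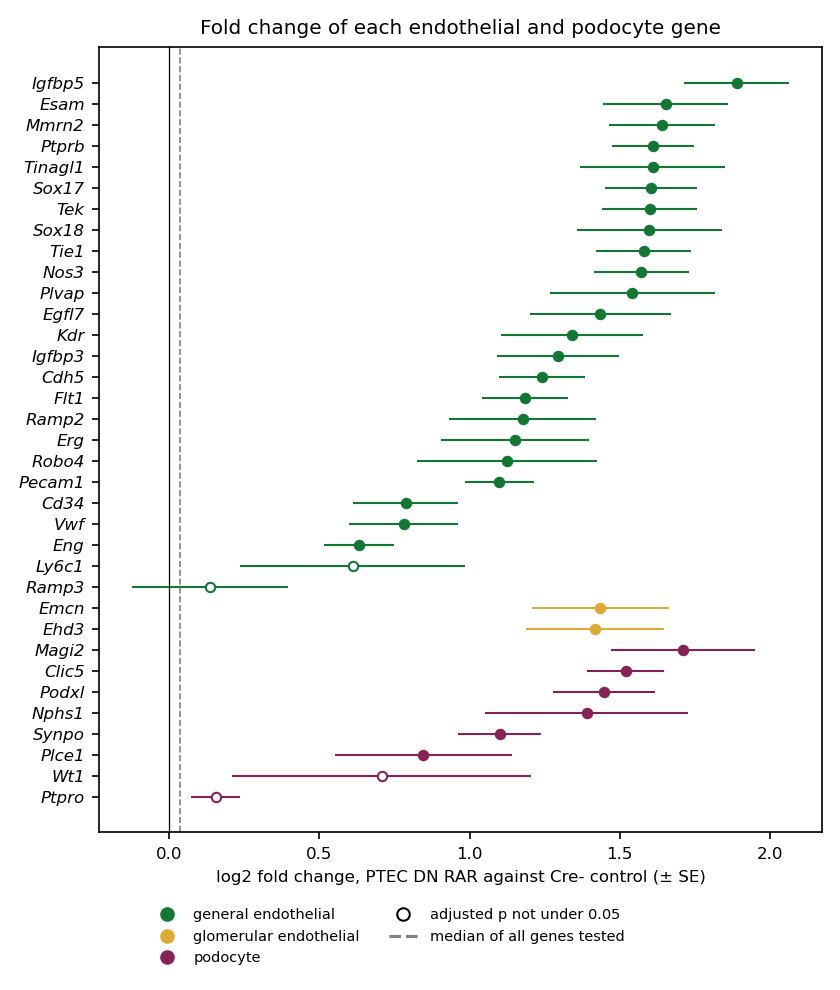
Log2 fold change of each gene between PTEC DN RAR and Cre- control mice, with bars of 1 SE from edgeR, filled where the adjusted p is under 0.05. Most general endothelial genes lie between 1.10 and 1.65, Emcn and Ehd3 at 1.43 and 1.42, and Ramp3 and Ptpro near the dashed median of all genes.

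Both genes of the glomerular endothelial group rose. Emcn (ENSMUSG00000054690, chromosome 3 from 137341067 to 137432185), the gene for the sialomucin endomucin, measured 12.2, 9.73 and 6.05 CPM in controls, against 23.6, 28.4 and 23.9 CPM in PTEC DN RAR mice. Ehd3 (ENSMUSG00000024065, chromosome 17 from 73804134 to 73832094), an endocytic recycling gene known in kidney for glomerular endothelium, measured 12.6, 12.8 and 6.87 CPM in controls, against 26.3, 33.9 and 26.1 CPM in PTEC DN RAR mice. For both, control replicate 3 was lowest, PTEC DN RAR replicate 2 was highest and the groups did not overlap (adjusted p = 0.00196 for Emcn and 0.00217 for Ehd3 from edgeR). Of 5 further genes of the glomerular endothelium, 3 passed the filter on low counts (0.241 CPM in at least 3 libraries) in the controls as well, and of these Tspan7 and Plat, the tissue plasminogen activator gene, rose, at log2 fold changes of 1.87 and 1.15. Sost and Gata5 passed it only through the PTEC DN RAR libraries, where they measured 0.975 to 1.39 and 0.825 to 1.15 CPM, against at most 0.268 and 0.282 CPM in controls, so they had to be higher and are not counted. Pi16 did not pass (log2 fold change 0.20, adjusted p = 0.208 from edgeR). The summed CPM of Emcn and Ehd3 was 0.0699, 0.0622 and 0.0507 of the general endothelial sum in the controls, against 0.0698, 0.0745 and 0.0629 in PTEC DN RAR libraries, so these ratios overlapped.

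Podocyte genes rose in 6 of 8 cases. Nphs1 (ENSMUSG00000006649, chromosome 7 from 30458315 to 30487223), which encodes nephrin, measured 1.72, 4.09 and 1.65 CPM in controls, against 5.73, 7.40 and 6.27 CPM in PTEC DN RAR mice. Control replicate 2 stood above the other controls and still below every PTEC DN RAR library (log2 fold change 1.39, SE 0.34, adjusted p = 0.0119 from edgeR), and without control replicate 3 the adjusted p was 0.0514 at a log2 fold change of 1.12. Magi2, a scaffold of the slit diaphragm, measured 1.41, 1.28 and 1.14 CPM in controls, against 3.13, 4.95 and 4.47 CPM in PTEC DN RAR mice. It had the largest change of the podocyte genes (log2 fold change 1.71, SE 0.24, adjusted p = 0.00115 from edgeR).

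Podxl, the gene for the anionic surface protein podocalyxin, which glomerular endothelium also makes, measured 37.4, 55.1 and 34.7 CPM in controls, against 107, 112 and 128 CPM in PTEC DN RAR mice. Its groups were apart (log2 fold change 1.45, SE 0.17, adjusted p = 0.000559 from edgeR). Clic5, a foot process protein linked to ezrin and also found in glomerular endothelium, measured 10.2, 10.3 and 9.12 CPM in controls, against 24.3, 30.2 and 30.6 CPM in PTEC DN RAR mice. The controls of Clic5 were close together and the groups lay 2.36-fold apart (log2 fold change 1.52, SE 0.13, adjusted p = 0.000201 from edgeR). Synpo, the actin-associated synaptopodin gene, rose by 1.10 on the log2 scale, with 9.43, 11.5 and 9.73 CPM in controls, against 18.9, 23.2 and 23.5 CPM in PTEC DN RAR mice.

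Plce1, a phospholipase C gene mutated in nephrotic syndrome, lay just inside the threshold. It measured 1.77, 2.18 and 0.98 CPM in controls, against 2.56, 3.06 and 3.24 CPM in PTEC DN RAR mice, without overlap (log2 fold change 0.85, SE 0.29, adjusted p = 0.0476 from edgeR). The call was lost without any of 5 libraries, all but control replicate 2, with log2 fold changes from 0.54 without control replicate 3 to 0.94 without PTEC DN RAR replicate 1.

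Wt1 and Ptpro were the podocyte genes that did not pass. Wt1, the transcription factor that defines podocyte identity, measured 0.615, 2.28 and 0.602 CPM in controls, against 1.72, 1.56 and 2.35 CPM in PTEC DN RAR mice. Control replicate 2 lay among the PTEC DN RAR libraries and 3.79-fold above the lowest control (log2 fold change 0.71, SE 0.50, adjusted p = 0.286 from edgeR), and without it the log2 fold change was 1.58 (adjusted p = 0.012 from edgeR). Without control replicate 1 or 3 or PTEC DN RAR replicate 3 it was 0.38, 0.35 or 0.47 (adjusted p = 0.58, 0.644 and 0.556 from edgeR). Ptpro, a receptor phosphatase of the podocyte surface that also has a form in macrophages and B cells, measured 107, 104 and 102 CPM in controls, against 116, 123 and 109 CPM in PTEC DN RAR mice. Its groups did not overlap, but the nearest libraries were only 1.01-fold apart (log2 fold change 0.15, SE 0.08, adjusted p = 0.159 from edgeR). The ratio of Podxl to Ptpro CPM was 0.349, 0.530 and 0.341 in the controls, against 0.918, 0.910 and 1.17 in PTEC DN RAR mice. On average this log2 ratio differed by 1.32 (p = 0.1 by the same exact permutation, and 0.1 adjusted over the 3 ratios), and this pair too was chosen after its values were seen.

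Per kilobase of exon length, levels differed widely among the genes. In controls Eng was highest, at 17.5 CPM per kb, followed by Ptpro at 15.5, Ly6c1 at 8.14, Podxl at 7.73 and Igfbp5 at 6.43. Pecam1 stood at 4.44 and Cdh5 at 3.65, whereas Nphs1 (0.376), Wt1 (0.188), Magi2 (0.112) and Plce1 (0.103) were lowest. In PTEC DN RAR mice Eng (27.1), Igfbp5 (23.8), Podxl (21.04) and Ptpro (17.3 CPM per kb) led. Eng and Ptpro, the highest genes in controls, had log2 fold changes of 0.63 and 0.15, below the group medians.

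The spread within a genotype had a shared pattern over these genes. Control replicate 3 was the lowest control in 31 of the 35 genes, among them 22 of the 25 general endothelial genes. Control replicate 1 was the highest control in 16 general endothelial genes, and replicate 2 in 6 of the 8 podocyte genes. PTEC DN RAR replicate 1 was the lowest of its group in 24 of the 35 genes and replicate 2 the highest in 20. Summed over the 25 general endothelial genes, CPM came to 354, 362 and 255 in the controls, against 714, 837 and 795 in PTEC DN RAR mice. The sum of the 8 podocyte genes relative to that of all 27 endothelial genes was 0.449, 0.495 and 0.596 in the controls, against 0.365, 0.340 and 0.363 in PTEC DN RAR mice, lower in every PTEC DN RAR library. Ptpro, which did not pass, made up a large part of the podocyte sum, and without it the ratio was 0.165, 0.225 and 0.216 in the controls, against 0.213, 0.203 and 0.234 in PTEC DN RAR mice, with overlap between the genotypes.

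**Figure D3:**
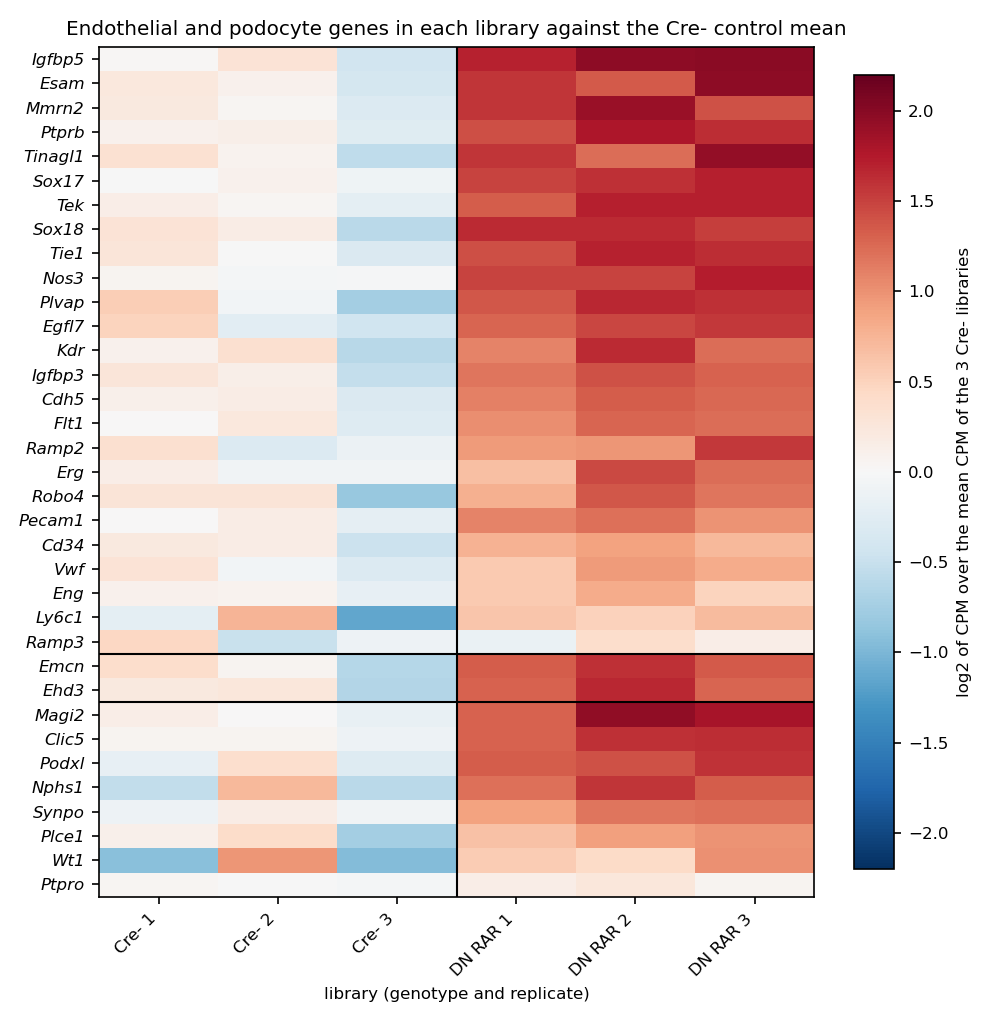
Log2 of CPM in each library over the mean CPM of the 3 Cre- control libraries, with a row per gene and a column per mouse, grouped from top to bottom as general endothelial, glomerular endothelial and podocyte. The PTEC DN RAR columns are red for most genes, and in the control columns replicate 3 is blue for most genes and replicate 2 stands out in Wt1 and Ly6c1.

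In the VEGF and angiopoietin pathway the ligands and coreceptors did not all move with the receptors. Of its 15 genes, 5 of which are also among the 35, 11 rose and 2 fell. In controls Vegfa, Nrp1 and Nrp2 averaged 129.5, 334.5 and 135.9 CPM, against 16.8 for Kdr, 15.4 for Flt1 and 6.12 for Tek. Which cells of the CD11B+ preparations each of these transcripts came from was not tested. Vegfa, the main ligand of Kdr and Flt1, measured 132, 98.2 and 158 CPM in controls, against 70.6, 61.5 and 83.3 CPM in PTEC DN RAR mice. All PTEC DN RAR libraries were below all controls (log2 fold change -0.85, SE 0.18, adjusted p = 0.00605 from edgeR). Nrp2, a VEGF and semaphorin coreceptor, fell by 1.02 on the log2 scale, whereas Nrp1 was at -0.06 (adjusted p = 0.696 from edgeR). The ratio of Kdr to Nrp2 CPM, the remaining one of the 3 ratios and likewise chosen after its values were seen, was 0.148, 0.161 and 0.0713 in the controls, against 0.544, 0.882 and 0.521 in PTEC DN RAR mice (log2 difference 2.40, exact permutation p = 0.1, adjusted 0.1). Vegfb, Vegfc and Vegfd rose, with log2 fold changes of 0.94, 1.44 and 1.78, as did Angpt1 and Angpt2, the activating and context-dependent ligands of TIE2, at 1.24 and 1.32, and Flt4, the receptor of VEGF-C, at 0.85. Pgf did not pass (log2 fold change -0.88, adjusted p = 0.071 from edgeR).

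In the adrenomedullin pathway 9 of 10 genes were tested, 6 of which passed the filter in the controls as well, and of these 3 rose, namely Ramp2 and, with their log2 fold changes, the peptide gene Adm (1.09) and the receptor gene Gpr182 (1.19). Calcrl, with which both RAMPs pair, measured 33.1, 43.2 and 36.2 CPM in controls, against 34.1, 39.5 and 34.4 CPM in PTEC DN RAR mice. Its groups overlapped (log2 fold change -0.06, adjusted p = 0.72 from edgeR). The calcitonin receptor gene Calcr passed the filter only through the PTEC DN RAR libraries, at 0.549 to 0.890 CPM against at most 0.158 CPM in controls, and is not counted.

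**Figure D4:**
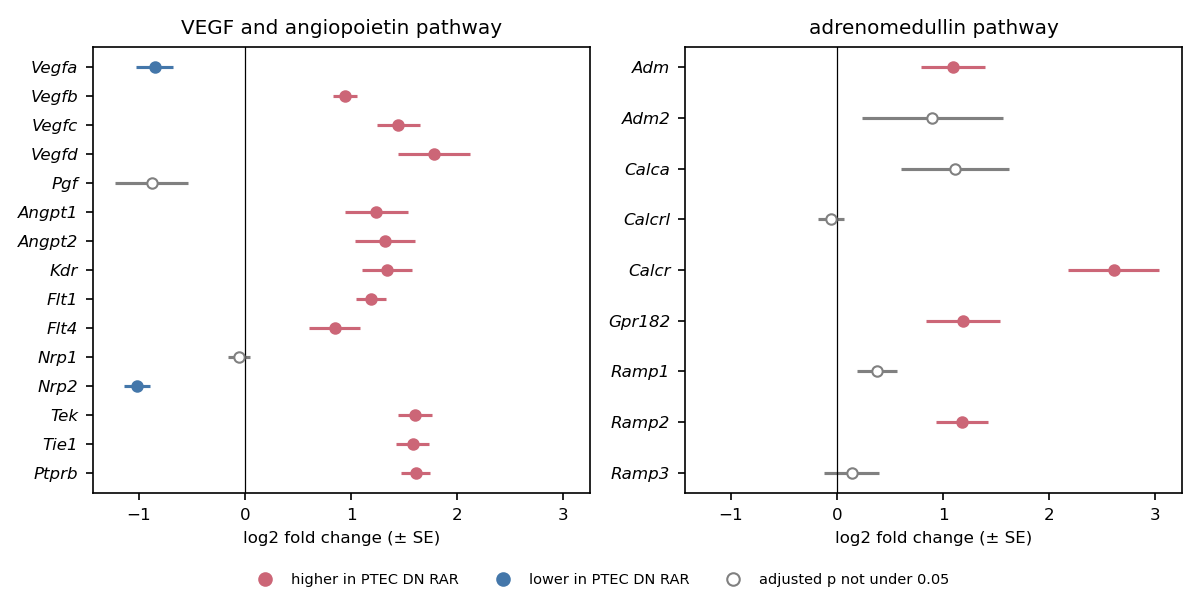
Log2 fold changes with bars of 1 SE for 15 genes of the VEGF and angiopoietin pathway (left) and the 9 tested genes of the adrenomedullin pathway (right), in red where higher, blue where lower and open where the adjusted p is not under 0.05. Calcr, at the far right, and Calca passed the filter only through the PTEC DN RAR libraries, and Adm2 did not pass it in all controls. Vegfa and Nrp2 lie left of 0 while Kdr, Flt1, Tek, Tie1 and Ptprb lie between 1.18 and 1.61.

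Other genes of the same cell types were read from the same fit. Of 20 further endothelial genes 13 rose and 1 fell, with a median log2 fold change of 1.18. The largest rises were in Clec14a, Notch4 and Ushbp1, at log2 fold changes of 1.65, 1.59 and 1.59. The gene that fell was Cd93 (log2 fold change -0.86), which monocytes also express, at 718 to 838 CPM in controls. Of 6 genes of lymphatic endothelium 5 were tested and 3 rose, Prox1, Reln and Flt4, with log2 fold changes of 2.16, 1.81 and 0.85. Lyve1 did not pass, at 2.31, 12.4 and 4.40 CPM in controls, against 3.39, 3.77 and 0.17 CPM in PTEC DN RAR mice (log2 fold change -1.38, adjusted p = 0.229 from edgeR). The summed CPM of the 6 genes was 30.8 to 48.7 in controls and 27.6 to 28.5 in PTEC DN RAR mice. Pdpn, a gene that lymphatic endothelium shares with podocytes and with other cells, measured 22.9, 29.1 and 28.6 CPM in controls, against 9.65, 9.47 and 11.4 CPM in PTEC DN RAR mice. It fell without overlap (log2 fold change -1.40, adjusted p = 0.000304 from edgeR), and which cells the Pdpn transcripts came from was not tested. Of 8 genes of endothelial activation 3 rose, namely, with their log2 fold changes, the leukocyte adhesion genes Sele (1.91) and Vcam1 (0.91) and the TIE2 ligand gene Angpt2. Sele measured only 0.253 to 0.503 CPM in controls. The groups of Vcam1 overlapped, at 86.3 to 127.1 CPM in controls and 126.4 to 263.9 CPM in PTEC DN RAR mice, and its cell source was not tested. Selp (-1.97), shared with platelets, and Icam1 (-0.35), shared with leukocytes, fell. Of the 17 further podocyte genes reported here 14 passed the filter in the controls as well, of which 11 rose and 3 did not pass, with a median log2 fold change of 1.14. The collagen IV chain genes Col4a3 and Col4a4, whose products include those of the glomerular basement membrane, rose by 1.52 and 1.73 on the log2 scale. Whether these transcripts came from podocytes was not tested. The transcription factor genes Lmx1b and Foxc2 passed the filter only through the PTEC DN RAR libraries and are not counted. The genes that did not pass were Kirrel, Cd2ap and Actn4, with log2 fold changes of 0.75, -0.23 and 0.11, of which Actn4 passed under pan-leukocyte scaling (0.33, adjusted p = 0.0193 from edgeR).

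Markers of tubule and stromal cells moved in the same direction. Of 18 proximal tubule genes 17 rose, with a median log2 fold change of 1.77, and their summed CPM was 1268 to 1503 in controls and 3112 to 4687 in PTEC DN RAR mice. All 7 thick ascending limb genes and all 5 distal convoluted tubule genes rose, with median log2 fold changes of 2.32 and 2.35, as did 4 of 8 collecting duct genes and 8 of 11 tested stromal and pericyte genes, with medians of 0.99 and 1.06. The sum of the 27 endothelial genes relative to that of the proximal tubule genes was 0.260, 0.304 and 0.178 in the controls, against 0.246, 0.192 and 0.224 in PTEC DN RAR libraries, so these ratios overlapped. Relative to Ptprc the same endothelial sum was 0.456, 0.362 and 0.282 in the controls, against 0.931, 0.890 and 1.05 in PTEC DN RAR mice. Mitochondrial genes took 5.03% to 8.77% of counts in controls and 10.4% to 12.1% in PTEC DN RAR mice. Monocyte and neutrophil genes moved the other way, with 7 of 8 and 6 of 10 lower and none higher, and among 10 resident macrophage genes 2 rose and 1 fell (5 and 1 when libraries were scaled on pan-leukocyte genes). The part of these other cell types and of RNA quality in the endothelial and podocyte values was not tested.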

How the data were processed

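RNA was sequenced from CD11B+ bead-sorted kidney cells, and the authors deposited raw read counts per gene for 6 libraries. The submitters' processing notes name STAR 2.5.0a, HTSeq 0.6.1 and GRCm38. Reads aligned to more than 1 place (42.9% to 47.8% of alignments) were not counted. Whether strand was used is not given in the sources used here, so genes with a protein-coding exonic partner on the other strand (Eng and Fpgs, Egfl7 and Agpat2, Nos3 and Atg9b) are less certain. After 9 repeated identifiers were collapsed, 46603 genes remained, of which 46091 had GENCODE M21 coordinates and exon lengths.

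In edgeR 4.0.16 (R 4.3.3), low counts were removed with filterByExpr, libraries were scaled by TMM, and the genotypes were compared by quasi-likelihood test. P-values were adjusted over 15440 genes by the Benjamini-Hochberg method, at a threshold of 0.05. Libraries of a genotype differed by more than sampling noise, and p-values measure the spread between them. Alternatives were DESeq2 1.42.0, limma 3.58.1 voom, other scalings and filters, the replicate block and leaving out each mouse. From the list of further podocyte genes 2 are not reported here. The 35 genes and all lists were chosen with earlier results of these data known. All 35 may be named, and from other lists the largest changes called in each direction, at most 3 each way, or any pathway, glomerular or podocyte gene. Outside this rule, Ly6c2, Lyve1, Itga2b, Treml1, Tubb1, Clec1b, Gpihbp1 and Procr were named after their values were seen.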

Additional observations from a re-analysis of the deposited data

How the results depend on the processing

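Of 490 fold changes (35 genes under 14 alternatives), 477 kept their direction and their side of the threshold, 9 lost the call, 3 gained it and 1 reversed, which was Ramp3 at -0.10 without Cre- control replicate 2 (range on leaving out each mouse -0.10 to 0.43). Between 29 and 33 of the 35 genes were called higher under each alternative and none lower. Plce1 lost its call in 7 alternatives, among them DESeq2 size factors (0.81, adjusted p = 0.0577 from edgeR). Scaling on 26 pan-leukocyte genes moved the median of all genes by 0.21 on the log2 scale. It left 4957 genes higher and 750 lower in place of 3640 and 2636, so that 86.9% rather than 58.0% of calls were higher, and under it Ptpro passed (0.36, adjusted p = 0.0127 from edgeR), Icam1 no longer did (-0.14), Nrp1 and Calcrl changed sign to 0.15 and Vegfa stayed lower (-0.63). Among the other lists it added calls of Actn4 (0.33), Ramp1 (0.58), Gpihbp1 (1.32) and Procr (0.69), and it moved the genes called higher from 2 to 5 of 10 resident macrophage genes, from 8 to 10 stromal genes and from 1 to 4 T, NK and B cell genes. Genes called lower went from 7 to 6 of 8 monocyte genes and from 6 to 5 of 10 neutrophil genes.

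Leaving out each mouse in turn gave 4307 to 6523 calls over all genes, 2433 to 3699 higher and 1874 to 2824 lower. It gave 22 to 24 general endothelial calls with medians of 1.07 to 1.45, 2 glomerular calls with medians of 1.15 to 1.61, and 4 to 7 podocyte calls with medians of 1.07 to 1.54, the highest being without Cre- control replicate 2.

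Replicate numbers join different mice, and same-numbered libraries correlated in their deviations at -0.01, 0.21 and 0.03, so they were not taken as pairs. With the replicate block 6218 genes were called, 30 of the 35 among them, and Plce1 was at 0.89 (adjusted p = 0.0626 from edgeR).

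The fewest reads in a library were 19 for Wt1, 31 for Plce1, 36 for Magi2, 37 for Sox18, 46 for Robo4 and 52 for Nphs1 and Erg.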
